A study of Homo sapiens with 6 samples.

Results

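The guide RNA SG4 targets PKLR, which encodes the pyruvate kinase found in the liver and in red cells, and its GUIDE-seq library listed 555 places in the genome where a tagged break was found. The most counted place inside PKLR (chromosome 1, 155289293 to 155308654, hg38) was taken as the on-target site, and the other 554 places are the off-target sites described here, of 1626 sites listed for the 6 guides of the study. HEK293 cells, a human embryonic kidney line, carried a stable Cas9 transgene in every library and received a complex of crRNA and tracrRNA with a double-stranded DNA tag by nucleofection. By their labels the libraries differ only in the guide (SG1, SG2, SG3, SG4, SG7 or SG8), and each guide has 1 library. No untreated or tag-only library was analysed here. Listed counts ran from 4079 (SG7) and 10337 (SG8) to 76822 (SG2) and 79227 (SG4), and were not scaled between guides. A single nucleofection of 1 cell line gives no replicate error, so intervals below are exact 95% intervals that cover counting error only, and no difference between guides was tested.

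Cas9 is led to DNA by the spacer of its guide RNA and cuts beside a short motif called the PAM, which for the commonly used enzyme reads NGG. The bases next to the PAM are known to tolerate mismatches least, and those at the far end most. In GUIDE-seq a double-stranded tag is joined into the break during end joining, so the place of the tag marks the cut. The count of a site grows with how often the tag was recovered there and is not by itself a rate of mutation.

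The on-target site lay at position 155301503, 65 bases upstream of a RefSeq start of PKLR, and had 4654 of the 79227 listed counts. Sites are given below in percent of this count. Off-target sites ranged from 2 to 8052 counts, with a median of 16 (quartiles 7 and 59.75), or 0.344% of the PKLR count.

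No genome sequence was used, but the RefSeq promoter windows (GRCh38.p14, 250 bases before to 50 after a gene start) hold the sequence around the on-target site and around 12 off-target sites. The guide's own sequence was not given in the sources used here. Stretches of 20 bases followed by NGG whose predicted cut, 3 bases from the PAM, lay within 5 bases of the listed PKLR position were therefore taken as candidates. There were 3 of them, printed here 5′ to 3′ with the PAM in capitals because the description of the off-target sequences rests on the first. Candidate 1 lies at chr1:155301486-155301508 on the plus strand, candidate 2 at chr1:155301500-155301522 and candidate 3 at chr1:155301501-155301523, both on the minus strand.
candidate 1: agaaaaggggcacacccagtAGG
candidate 2: tggggacagggtggcctactGGG
candidate 3: gtggggacagggtggcctacTGG

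The first candidate was chosen by its match to the off-target sites, so its mismatch numbers at those sites are a description and not a test. At the 11 off-target sites outside PKLR with sequence, the best stretch with an NGG PAM and a cut within 30 bases had a mean of 7.55 mismatches to candidate 1 (3 to 12). Candidate 2 had a mean of 11.2 mismatches (8 to 13) and candidate 3 a mean of 11.3 (9 to 13). Candidate 1 had 6 or fewer mismatches at 4 of the 11 sites, whereas candidates 2 and 3 had so few at none. The listed PKLR position was 1 base to the right of the last base before the cut predicted for candidate 1.

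The off-target targets with 8 or fewer mismatches to candidate 1 are printed next, since they show which bases the listed sites share with PKLR. Capitals mark bases that differ from candidate 1, and the last 3 letters are the PAM.
LINC00945 (chr21:33057623-33057645, plus): TgGaaaggggcacaGccagtcgg
LOC124906237 (chr3:51671303-51671325, plus): agaGGagAggcaTacccaCtggg
LOC124902146 (chr9:34668492-34668514, plus): aTCaCaAgggcacacccaTttgg
MYADML2 (chr17:81947406-81947428, plus): agGGTTggAgGacacccagtggg
CDA (chr1:20589020-20589042, plus): GCTGCagggAcacacccaAGggg
SSU72L6 (chr7:124476091-124476113, minus): CAaaGGTggCACcacccagtcgg
S100A7 (chr1:153460763-153460785, plus): GTGGGTgggAcacacccagGagg
S100A7A (chr1:153416386-153416408, minus): GTGTGTgggAcacacccagGagg

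The match was closest at the site upstream of LINC00945, a long non-coding RNA gene, with 3 mismatches (A1T, A3G and C15G, where position 1 is farthest from the PAM and candidate 1's base comes first). This site, 189 bases before the gene start at position 33057640, had 448 counts, or 9.63% of the PKLR count, the most of the sites with sequence. The site 61 bases upstream of CDA, which encodes the pyrimidine salvage enzyme cytidine deaminase, followed with 110 counts (2.36%) and had 8 mismatches. The site 221 bases upstream of SSU72L6, a member of a family related to the phosphatase SSU72, had 35 counts (0.752%) and also 8 mismatches.

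The remaining targets belonged to sites with few counts. A site with 14 counts (0.301%) lay 215 bases upstream of the long non-coding RNA gene LOC124906237 and 68 bases inside TEX264, a receptor for the autophagy of the endoplasmic reticulum; it had 5 mismatches. LOC124902146, also a long non-coding RNA gene, had 4 counts at a target with 5 mismatches, and this site lies inside the protein-coding gene PHF24. MYADML2 had 5 counts at a target with 6 mismatches. The neighbouring genes S100A7 and S100A7A encode calcium-binding proteins of the skin. They held the same kind of site 128 bases before their starts, that of S100A7A inside the protein-coding gene S100A8. Each site had 8 mismatches, with 7 counts at S100A7 and 3 at S100A7A. Mismatch number therefore did not order the counts: targets with 5 mismatches had 14 and 4 counts, and targets with 8 had between 3 and 110.

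Mismatches were concentrated away from the PAM. Over the 8 targets, 40 mismatches fell in positions 1 to 10 and 11 in positions 11 to 20. S100A7 and S100A7A, which are similar copies with mismatches at the same positions, were counted as separate targets. Each had 7 mismatches in positions 1 to 10 and 1 in positions 11 to 20. Position 5 differed at 7 of the 8 targets and position 3 at 6. Positions 14, 16, 17 and 18 were matched at all 8, and position 15 at 7. Positions 19 and 20, next to the PAM, each differed at 3 targets.

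The distance between the listed position and the predicted cut was not used to choose candidate 1. It was 0, 1 or 2 bases at all 8 targets, although cuts up to 30 bases away on either side were searched. The site 19 bases upstream of NTMT2, a gene of an N-terminal methyltransferase, had 16 counts and 9 mismatches at a target 2 bases from the listed position. At CYTH1, which encodes an exchange factor for ARF proteins (6 counts), the best NGG target had 12 mismatches and a cut 2 bases from the listed position. A target there with the PAM CAG and 4 mismatches had its cut 1 base from the listed position. The best NGG target had 11 mismatches at NBPF1 (5 counts), with its cut 19 bases from the listed position. The second listed position in PKLR with sequence around it, at 155301550, had 10 mismatches at a target whose cut lay 0 bases from it. Cuts within 2 bases were thus not limited to targets with 8 or fewer mismatches.
NTMT2 (chr1:170145933-170145955, minus): GAGGaGgggCAGcacAcagtggg
CYTH1 (chr17:78736930-78736952, plus): aAaGaagCggcacTcccagtcag

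The same search was made at the middle of all 35116 promoter windows of the table, where overlapping windows of 1 gene count separately. A target with 6 or fewer mismatches to candidate 1 stood in 0.0456% of windows, and 1 with 8 or fewer in 1.61%. Among the 11 SG4 sites the shares were 36.4% and 72.7%. Candidate 1 was chosen by its match to these 11 sites, so the comparison is a description and not a test. The other 5 guides had 9 off-target sites outside PKLR with sequence, and none of these had 8 or fewer mismatches to candidate 1; 1 had 9.

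Most matching places in promoter windows had no listed site. Beside PKLR, 75 places held a target with 3 to 6 mismatches and an NGG PAM anywhere in the 300 bases of a window, and 4 of them were listed for SG4 within 5 bases of the cut. The listed ones were the only place with 3 mismatches, 2 of the 13 with 5 and 1 of the 60 with 6. Split by the bases next to the PAM, 3 of the 7 places with at most 1 mismatch in positions 11 to 20 were listed. Of the 17 places with 2 mismatches there, 1 was listed, and none of the 51 with 3 or more. The 4 listed places are among the sites by whose match candidate 1 was chosen, so these shares are a description and not a test. The place with 4 mismatches, before LRRN2, had 3 of them in positions 11 to 20 and was not listed. LINC01953, with 5 mismatches of which 1 lay in those positions, was not listed either. The list holds only sites of 2 or more counts, so a place that is not listed may still have been cut.
LRRN2 (chr1:204685933-204685955, plus): agaGaaggggcacaGccCTtggg
LINC01953 (chr2:213167858-213167880, minus): aTGaaTgggCcacacAcagtggg

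Off-target sites recurred at copies of several gene families, as at S100A7 and S100A7A above and at SSU72L. SG4 sites lay 930 bases upstream of SSU72L2 (position 4243636, 52 counts), 926 bases upstream of SSU72L5 (4232291, 30 counts) and 923 bases upstream of SSU72L3 (4328867, 26 counts), all on chromosome 11. These offsets agree within 7 bases, and the counts lay between 0.559% and 1.12% of the PKLR count. SSU72L1 and SSU72L4, in the same stretch of chromosome 11, had no listed site within 2 kb of their starts. The SSU72L6 site on chromosome 7 lay at another offset, 221 bases upstream. The stretch of SSU72L6 that held the target stands in the windows of the other copies with 1 to 3 differences over its 23 bases, and none of these was listed. In each of the 5 copies the PAM reads CTG in place of the CGG of SSU72L6, as at SSU72L2.
SSU72L2 (chr11:4242898-4242920, plus): CAaaGGTggCACcacccagtctg

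UNC93B1, whose protein carries Toll-like receptors to endosomes, and its pseudogene copies showed the same kind of recurrence. Of the 8 genes with this name in the gene table, 7 held 1 SG4 site each, and UNC93B4, the shortest at 2223 bases, held none. UNC93B1 had 146 counts at position 67993538 of chromosome 11, or 3.14% when PKLR is set to 100%. The pseudogenes UNC93B2 (chromosome 7, 6857486), UNC93B6 (chromosome 11, 71605605) and UNC93B5 (chromosome 11, 67713681) had more, with 279, 204 and 158 counts. UNC93B3 on chromosome 3 had 28 counts, and UNC93B7 and UNC93B8 on chromosome 4 had 16 and 15. All 7 sites lay between 2341 and 2454 bases from the gene end with the lower coordinate. Together they held 846 counts, 1.13% of the off-target counts, and 4 of the 7 reached 1% of the on-target count, beside 29.1% of all off-target sites. The other guides listed no site in these genes. This family was picked out after its values were seen. The division of counts among near-identical copies is uncertain, here and at SSU72L, since the placing of reads that match several copies was not given in the sources used here.

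A small number of places held most of the off-target counts. Of the 74573 off-target counts, 25% lay in the 4 most counted sites, 75% in 46 sites and 90% in 123 sites. The 16 sites with 1000 or more counts held 54.9%, the 81 with fewer than these but at least 100 counts 32.1%, and the 263 with 10 to 99 counts 11.6%. The 168 sites with 3 to 9 counts made up 30.3% of the list and 1.26% of the counts, and 26 sites had 2 counts. At or above 1% of the on-target count stood 161 sites, or 29.1%, and at or above 10% stood 28, or 5.05%. The last site inside the limit of 1% had 47 counts and the first outside it 45; at 10% these were 497 and 458.

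The most counted places are named by their genes, with the caution that the gene table gives gene ends only, so exon and intron were not told apart. A site in LOC100130331, a transcribed pseudogene (chromosome 1, 237903006), had 8052 counts and 1 further site exceeded the PKLR count. FXYD7, a regulator of the sodium pump, had 60.3% of the PKLR count, and SLC44A5, a choline transporter-like gene (chromosome 1, 75274525), had 57.0% from 2654 counts (54.4 to 59.8%). SLC23A1, the vitamin C transporter gene (chromosome 5, 139373816), had 2097 counts (45.1%), and SLCO4A1, an organic anion transporter gene (chromosome 20, 62644393), had 1200 (25.8%).

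CPT1A (chromosome 11, 68770348), whose enzyme admits long-chain fatty acids to mitochondria, had 1391 counts (29.9%, interval 28.1 to 31.7%). TOR1A (chromosome 9, 129814519), which encodes a torsin ATPase of the endoplasmic reticulum, had 1392 counts. SORL1 (chromosome 11, 121466885), a sorting receptor gene, had 1376 counts. Those 3 values differed by less than their counting intervals. CCDC57, a gene of a coiled-coil protein, had 98.2%, and its site lay 9.06 kb downstream of the gene start.

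Further protein-coding genes held sites between 9% and 27% of the PKLR count. In order these were LOC128966717 (1241 counts, 26.7%), CA11, a carbonic anhydrase-related gene (1036 counts, 22.3%), CLIC6, a chloride intracellular channel gene (985 counts, 21.2%), and TOM1L2, a gene of endosomal sorting (765 counts, 16.4%). EMC9, a subunit of the complex that inserts membrane proteins, had 692 counts (14.9%) and PLXNB3, a semaphorin receptor gene, had 688 (14.8%). DYSF, whose protein takes part in muscle membrane repair, had 599 counts (12.9%), ST6GALNAC5, a sialyltransferase gene, 562 (12.1%), and GABBR2, a subunit of the GABA-B receptor, 458 (9.84%). The counting intervals of EMC9 and PLXNB3 overlapped, as did those of CA11 and CLIC6 and of DYSF and ST6GALNAC5, whereas those of CLIC6 and TOM1L2 did not.

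The leading places outside protein-coding genes were of several kinds. The pseudogene BNIP3P12 (chromosome 19, 19966059) had 1883 counts (40.5%). The long non-coding RNA genes LOC105376214, LINC03007 and LOC105374949 had 613, 521 and 497 counts. Outside all annotated genes, position 131832137 of chromosome 2 had 2954 counts. Position 70267696 of chromosome 11, 2.99 kb upstream of the start of PPFIA1, the gene of a liprin scaffold protein, had 1625 counts. Position 69570747 of the same chromosome had 1409. Together with CPT1A, 3 of the 12 most counted off-target sites thus lay between positions 68770348 and 70267696 of chromosome 11. Other such places were 7.01 kb upstream of PHPT1 (923 counts), upstream of PPARA, the fatty acid-sensing nuclear receptor gene (911 counts at 46125525 of chromosome 22), 20982 bases downstream of the start of KLF14 (714 counts) and 17.8 kb upstream of GPATCH2L (450 counts).

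Of the 553 off-target sites on chromosomes 1 to 22 and X, 275 lay in protein-coding genes, 76 in other annotated genes only and 202 outside genes. The protein-coding share was 49.7% (45.5 to 54.0%), where such genes cover 41.6% of sequence. Sequence here and below runs from the first to the last annotated gene of each chromosome. Assembly gaps and stretches where reads cannot be placed were not taken out, so shares of sequence are approximate yardsticks. The 76 comprised 63 sites in long non-coding RNA genes and 13 in pseudogenes. Protein-coding genes held 56.2% of the counts, the other genes 19.6% and places outside genes 24.2%. Median counts were close, at 15 in protein-coding genes, 14.5 in other genes and 16.5 outside. The share that reached 1% of the on-target count was 32.0% in protein-coding genes, 23.7% in other genes and 26.7% outside, beside 29.1% over all sites.

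Gene starts held more sites than their share of sequence. Of 528 sites on the chromosomes with gene starts in the table, 31 lay within 1 kb of the start of a protein-coding gene, or 5.87% (4.02 to 8.23%), where 1.26% of sequence lies so near. Within 10 kb there were 112 sites, or 21.2% (17.8 to 24.95%), where 10.7% of sequence lies. Beyond 500 kb there were 36 sites, or 6.82% (4.82 to 9.32%), against 18.5% of sequence, with gaps and unmappable stretches included. The sites near starts were not the more counted ones. Within 1 kb, 32.3% had at least 1% of the PKLR count, beside 29.1% of all off-target sites. Their median count was 16, as over all sites. The same shares within 10 kb were 20.05% for SG1 (16.4 to 24.2%) and 21.5% for SG2 (18.0 to 25.3%), so the intervals of the 3 long lists overlap. The table holds starts of 15812 of 19256 protein-coding genes on these chromosomes, and 25 sites on chromosome 8 had no start to measure from.

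Of the 31 sites within 1 kb of a start, 10 (32.3%) reached 1% of the on-target count, beside 29.1% of all off-target sites. After EMC9, 422 bases past the start, came CDPF1 with 395 counts (8.49%) 987 bases past it, and APOE, the gene of a lipoprotein of cholesterol transport, with 292 counts (6.27%, interval 5.56 to 7.06%) 107 bases past a start. CDKN2B, a brake on the cell cycle kinases CDK4 and CDK6, had 99 counts (2.13%) 379 bases past its start, at position 22008926 of chromosome 9, where the antisense gene CDKN2B-AS1 overlaps it. ABCB8, a mitochondrial transporter gene, had 93 counts, APBB1, whose protein binds the amyloid precursor, 89, and DCDC2B 86. CRABP1, a retinoic acid-binding protein gene, had 75 counts 438 bases before its start. CDA and SSU72L2 were given above.

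Sites were uneven over the chromosomes. The mean was 0.183 sites per Mb of reference sequence, and the copy number of each chromosome in the HEK293 cells was not taken into account. Chromosome 4 had the fewest for its length, with 13 sites, or 2.35% of all (1.26 to 3.99%), where it makes up 6.28% of sequence. Chromosome 19 (20 sites, 0.342 per Mb), chromosome 22 (17 sites, 0.335 per Mb) and chromosome 17 (27 sites, 0.324 per Mb) had the most per Mb. Their shares of sites were 3.62% (2.22 to 5.53%), 3.07% (1.80 to 4.88%) and 4.88% (3.24 to 7.02%), and each interval lay above its share of sequence (1.93%, 1.68% and 2.75%). Chromosome 1 had 60 sites, or 10.9% (8.38 to 13.7%), against 8.22% of sequence, and the intervals of the other 18 chromosomes included their share of sequence.

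Over the 23 chromosomes, the density of sites went with that of protein-coding genes, as a description (Pearson's r = 0.71, Spearman's rho = 0.60); all points come from 1 library. Chromosome 4 had 4.46% of the SG1 sites (2.75 to 6.81%) and 3.94% of the SG2 sites (2.46 to 5.96%), so its interval lay below its share of sequence for SG2 also. Chromosome 17 had 5.58% of the SG1 sites (3.64 to 8.13%) and 6.57% of the SG2 sites (4.62 to 9.02%), and chromosome 19 had 6.25% (4.19 to 8.91%) and 5.44% (3.67 to 7.72%), all above their shares of sequence. Chromosome 22 had 2.46% of the SG1 sites (1.23 to 4.35%), an interval that includes its share of sequence, and 3.75% of the SG2 sites (2.31 to 5.74%), which lay above it. Counts were spread otherwise than sites: chromosome 16 had 17 sites and 295 counts, while chromosome 19 had 20 sites and 6728 counts. Of the latter counts, 2805 lay at the FXYD7 site and 1883 at the BNIP3P12 site. None of the 17 sites and 8 of the 20 reached 1% of the PKLR count, beside 29.1% of all off-target sites.

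Genes that matter for safety and for the red cell were looked at through lists. Among 132 cancer genes, 68 genes of red cells, blood formation and glycolysis, 40 genes of break repair, 20 large genes of common fragile sites and 11 genes linked to clonal growth after vector insertion, 3 SG4 sites were found. RUNX1, a transcription factor gene of blood formation that is on both of the first lists, had 189 counts at 34862656 of chromosome 21. ERG, also on both of these lists, had 5 counts (0.107%, interval 0.0349 to 0.251%) 574 bases past a start. CNTNAP2, a neuronal adhesion gene of the fragile site list, had 36 counts (0.774%, interval 0.541 to 1.07%). The share of gene length would give 5.28 sites for the cancer genes and 6.29 for the fragile site genes, where 2 and 1 were listed. It would give 0.676 for the red cell list, where 2 were listed. The lists of break repair and vector insertion genes held no site. Of the 3 sites, 1 reached 1% of the on-target count, beside 29.1% of all sites.

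Families were read from the start of the gene symbol. Solute carriers held 8 sites in 7 genes, where their share of gene length would give 5.58. After SLC44A5, SLC23A1 and SLCO4A1 the others were weak: SLC16A10 had 38 counts, SLC35D2 25, SLC38A10 11 and SLC8B1 5. Symbols that begin with MYO held 7 sites where length would give 1.20, with at most 72 counts each. These comprised MYO1E with 68 and 16 counts, MYO18B and MYO9A, which are myosins, and also MYOM1, MYOF and MYOZ3, which are not. Receptor phosphatases held 2 sites against 1.86 by length, in PTPRF (184 counts) and PTPRC (99 counts), which encodes the leukocyte antigen CD45. Potassium channels held 2 against 2.50, in KCNS3 (139 counts) and KCNMA1 (51 counts). Cadherins held 3 against 1.48, led by CDH4 with 34 counts. Genes with a ZNF symbol held 2 against 4.56, ZNF185 with 38 counts and ZNF800 with 27. Calcium channels, ADAM proteases and collagens held 1 each, CACNA1H with 30 counts, ADAMTS17 with 33 and COL5A2 with 13, where length would give 1.13, 1.36 and 1.60. Protocadherins, sodium channels, forkhead factors, phosphodiesterases, glutamate receptors and semaphorins held none, where length would give between 0.348 and 2.17 sites each.

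Of the 272 protein-coding genes with an off-target site, 10 held 2 each. In 4 the positions lay 26 to 52 bases apart, and a strong and a weak position stood side by side in 3 of those: FXYD7 had 2805 and 26 counts, SLC23A1 2097 and 8, and TRAPPC9 83 and 2. CPAMD8 had 5 and 4 counts 35 bases apart. Far apart were the positions in TET3, a DNA demethylation gene (367 and 12 counts, 7.63 kb), DLGAP4 (68 and 5 counts, 61.8 kb), BBS9 (12 and 8 counts, 93.1 kb), SASH1 (14 and 10 counts, 136 kb) and MYO1E (138 kb). PKLR had 13 counts 47 bases from the on-target position and 7 counts at 155300916, or 0.279% and 0.150% of the on-target count. On chromosome 7, outside genes, 230 counts at 131726159 stood 1292 bases from 63 counts at 131727451, and 2 more counts lay 16 bases beyond.

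Few SG4 sites were listed for another guide. With each site widened by 50 bp, 8 of the 554 (1.44%) overlapped a site of SG1, SG2 or SG3, and none a site of SG7 or SG8. These 8 held 13.2% of the SG4 off-target counts, because strong sites were among them. At FXYD7 SG4 had 2805 counts, SG1 6 and SG2 3, and at 69570747 of chromosome 11 SG4 had 1409, SG1 4 and SG2 6. At 141649251 of chromosome 8 SG4 had 268 counts and SG2 2. The relation was turned at SYNJ2, with 5 counts for SG4, 2680 for SG1 and 5 for SG3, at GUCY2F, with 3 for SG4 and 5515 for SG2, and at NRG3, a ligand gene of ERBB receptors, with 2 for SG4 and 582 for SG1. Apart from the weak second position in FXYD7, with 26 counts, the higher library had at least 134 times the count of the lower at each named place, except for SYNJ2 between SG4 and SG3, with 5 counts each.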

How the data were processed

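GUIDE-seq site lists of 6 libraries of HEK293 cells with Cas9 were used, 1 per guide, and the SG4 list in full. Per the file headers, the authors deposited for each site a whole-number count, not normalized, and a ratio. Whether these are reads or molecules, and how sites were aligned, called and filtered, was not given in the sources used here. The submitters' processing notes name hg38. The deposited SG4 ratio is relative to the most counted site (PKLR stands at 0.578), so percentages were recomputed.

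Sites were placed in RefSeq genes (GRCh38.p14) by gene ends. Starts, strands and sequences came from RefSeq promoter windows, and none of chromosome 8 were used. Intervals are exact (Clopper-Pearson, 95%), and amplified reads are not independent molecules. The list total of 79227 counts is not the sequencing depth.

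Named are the PKLR sites, the 30 most counted sites, sites in listed genes, genes with several sites, sites within 1 kb of a start at 1% or more, shared places, sites off the main chromosomes, and the leading site of each family. Some of these are left out. The sites with sequence, TEX264, PHF24, S100A8, LRRN2, LINC01953, the SSU72L and UNC93B copies and the further family members were named after their values were seen. Members and lists were chosen with earlier results of these data known. Alternatives were a minimum count, merging, other overlaps, other distances, all genes, and other searches. The code was tested on simulated data. The tools were Python 3.11.15 with scipy 1.17.1, numpy 2.4.6, matplotlib 3.10.9 and pandas 2.3.3.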

Additional observations from a re-analysis of the deposited data

Results flagged for a closer look

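One SG4 site lies outside chromosomes 1 to 22 and X and so entered no comparison by gene, start or chromosome. It stood at position 12417 of the unplaced contig KI270438v1 with 59 counts, or 1.27% of the PKLR count. A signal in data outside the main comparisons, with no control library to set it against, brought it here, and its source was not tested.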

How the results depend on the processing

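Of 43 recomputed values for 11 results, 35 moved by less than counting error, or for numbers of sites by at most 1.5 times, and 8 moved further. A minimum of 10 counts left 360 off-target sites in place of 554 and 0 shared with another guide in place of 8, since fewer sites enter. Without the shared places the on-target share of listed counts was 6.70% in place of 5.87%. The share of sites inside genes was 63.5% with all annotated genes, which cover 55.2% of sequence, in place of 49.7%. Among the sites that reached 1% of the on-target count, the share inside protein-coding genes was 55.0% (46.95 to 62.9%). That value lies outside the interval of all sites (45.5 to 54.0%), but its own interval includes 49.7%. The share near gene starts was 5.87% within 1 kb and 66.3% within 100 kb, in place of 21.2% within 10 kb. Requiring the same base left 4 shared sites. Without a PAM, 10 of the 11 sites with sequence had 8 or fewer mismatches to the candidate, in place of 8. The share of promoter windows was computed only with an NGG PAM, so this number has no background beside it. NBPF1 entered with 8 mismatches, 6 of them in positions 11 to 20. No paired analysis was possible because SG4 and every other guide have 1 library each, and leaving out a library would have left nothing to compare. Sites of 2 or 3 counts carry little weight singly.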

Other observations

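Some sites lay near, but not inside, genes of the lists. They were looked for within 100 kb of the listed genes' starts after the list was seen, and the table holds starts of 106 of the 132 cancer genes and 46 of the 68 red cell genes. The CDKN2B site with 99 counts stands 13.6 kb upstream of the nearest start of CDKN2A, the tumour suppressor gene beside it. A site with 163 counts (3.50% of the PKLR count) in RTBDN stands 60.9 kb downstream of the start of KLF1, a transcription factor gene of red cell formation. A site with 12 counts in AIRE, a regulator of self-tolerance in the thymus, stands 11.7 kb upstream of PFKL, the liver-type phosphofructokinase of glycolysis. PDGFRA (15 counts, 67.3 kb) and PTPRT (6 counts, 53.4 kb) were the other 2 cancer genes with such a site. Of all 528 SG4 sites on chromosomes with starts, 66.3% lay within 100 kb of some protein-coding gene start, where 49.95% of sequence lies. A site at such a distance is therefore common, and no number expected for these lists was computed.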
